A study of Mus musculus with 2 samples.

Results

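The endoderm transcription factors described here are Foxa1, Foxa2, Foxa3, Gata4, Gata6, Hnf4a, Hhex and Pdx1. They were chosen by gene symbol, and all 8 were found among the 45777 genes of the expression table. RNA-seq was performed on 1 teratoma library from E14 cells, a mouse embryonic stem cell (ESC) line, and 1 teratoma library from E14-Sox2TA/WT cells. In the latter, threonine 258 of Sox2 was changed to alanine on 1 allele by CRISPR/Cas9, with the other allele left wild type, in clones grown from single edited cells. Both lines were inoculated subcutaneously with Matrigel into BALB/c-nu mice, 3 per group, and teratomas were harvested 14 days later. The study asked how loss of this O-GlcNAc site of Sox2 bears on the lineages that the cells form. Whether a library came from 1 teratoma or several is not given in the sources used here. The labels name the tissue as teratoma, while their protocol text mentions RNA from an ESC line.

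Foxa1, Foxa2 and Foxa3 are forkhead pioneer factors, which can bind closed chromatin and open gut and liver genes to other factors. Gata4 and Gata6 are zinc finger factors of primitive endoderm, gut and heart, and Hnf4a is a nuclear receptor that drives lipid transport and other genes of the visceral endoderm, liver and intestine. Hhex is a homeobox factor of anterior endoderm and of the liver and thyroid buds, and Pdx1 is a homeobox factor of the pancreas and duodenum. Several of them also act outside endoderm: Foxa1 and Foxa2 in the floor plate and in midbrain dopaminergic neurons, Foxa2 in the notochord, Gata4 and Gata6 in the heart, and Hhex in endothelium and blood. In bulk tissue such as a teratoma, a higher transcript level from more cells of a type cannot be told apart from more RNA per cell.

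The libraries held 50529171 reads on genes for E14 and 49030281 for E14-Sox2TA/WT. Levels are given in TPM, reads per transcript length rescaled to a fixed sum per library, so that levels can be compared between genes. With 1 library per group there is no replicate check and no p-value. Intervals are 95% intervals of the read counts, exact Poisson for a level and Clopper-Pearson for a ratio, and cover counting error only. Over the 11578 genes with a TPM of 10 or more in either library, the median log2 ratio of TPM + 1 was -0.18, and in FPKM it was 0.01, so a TPM ratio close to 1 depends on the scaling. Sox2 itself had a TPM of 246 for E14 and 130 for E14-Sox2TA/WT, a value that does not check the labels because the edit is a point change. A total of 4 Y-linked genes together had 5453 reads for E14 and 0 for E14-Sox2TA/WT, so the libraries also differ in a way the labels do not describe.

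Of the 8 factors, 7 had a higher TPM for E14-Sox2TA/WT and 1, Foxa1, had a lower one. Over all 45777 genes, 34.3% were higher and 29.4% lower, the rest being mostly at 0 in both libraries. The factors fell into 3 kinds by their values. Foxa1 and Foxa2 were abundant in both libraries and differed by less than 2-fold. Foxa3, Gata4, Gata6, Hnf4a and Hhex were low for E14 and 4.32-fold to 26.4-fold higher for E14-Sox2TA/WT. Pdx1 had almost no reads in either library. The median log2 ratio of TPM + 1 over all 8 factors was 1.54, beside 0.00 over all genes.

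**Figure D1:**
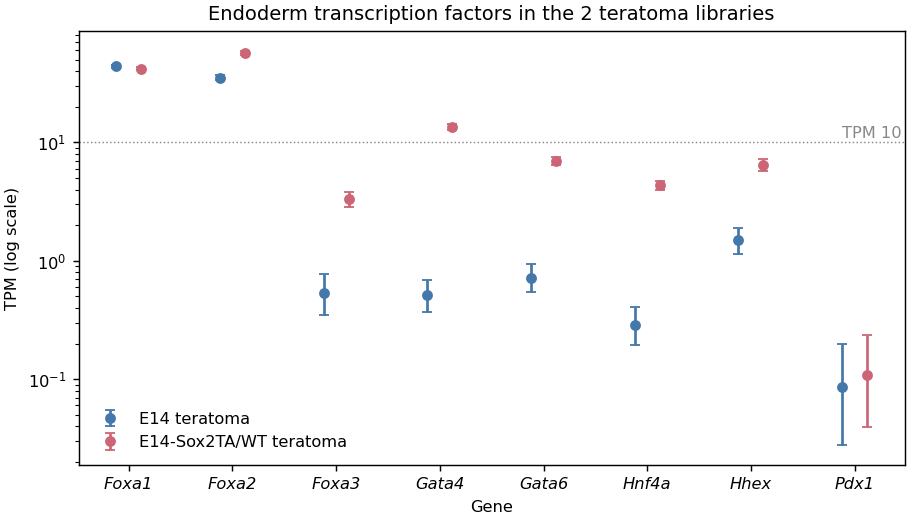
TPM (log scale) of each endoderm factor for E14 (blue) and E14-Sox2TA/WT (red), with 95% Poisson intervals of the reads as bars and a dotted line at TPM 10. Foxa1 and Foxa2 lie above the line in both libraries, Gata4 crosses it, at 0.511 and 13.5, and Pdx1 stays near 0.1.

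The rule of the study for differentially expressed genes (DEGs) was a fold change above 2 with a TPM of 10 or more in either library. Foxa1, Foxa2 and Gata4 reached that level, and Gata4, which reached it for E14-Sox2TA/WT only, passed the fold. By this rule 10.8% of the 11578 genes tested were higher and 18.7% were lower. Without a level filter 5 of the 8 were more than 2-fold higher and 0 lower, beside 20.0% and 13.1% of all genes. With a TPM of 1 or more in place of 10, all factors but Pdx1 entered, and 5 of these 7 were more than 2-fold higher and 0 lower, beside 19.3% higher and 18.9% lower among 18558 genes. Foxa3, Gata4, Gata6 and Hnf4a entered through the E14-Sox2TA/WT library only, so that their higher value there is in part fixed by the filter.

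The Foxa genes differed from each other in their ratios. Foxa1 (NCBI Gene 15375, chromosome 12 of GRCm38 from 57540628 to 57548029, minus strand) had 3365 reads and a TPM of 43.9 for E14, and 3637 reads and a TPM of 42.0 for E14-Sox2TA/WT. The ratio of TPM was 0.957, with an interval from 0.913 to 1.003, and the intervals of the levels overlapped. Its direction was not fixed, since the ratio was 1.10 in FPKM and 1.11 in read counts scaled by library total. Foxa2 (NCBI Gene 15376, chromosome 2 from 148042877 to 148046969, minus strand) had 1767 reads and a TPM of 35.3 for E14, and 3206 reads and a TPM of 57.2 for E14-Sox2TA/WT. It was 1.62-fold higher (1.53 to 1.72) in TPM and 1.86-fold higher in FPKM, and did not reach 2-fold by either. Foxa3 (NCBI Gene 15377, chromosome 7 from 19013283 to 19023539, minus strand) had 27 reads and a TPM of 0.531 for E14, and 182 reads and a TPM of 3.32 for E14-Sox2TA/WT. It was 6.25-fold higher (4.15 to 9.74). The intervals of the 3 ratios did not overlap, so the Foxa genes differed beyond counting error between these libraries.

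Ratios of genes inside a library do not depend on how the libraries are scaled to each other. Foxa2 stood at 0.804 times Foxa1 for E14 (0.758 to 0.852) and at 1.36 times Foxa1 for E14-Sox2TA/WT (1.30 to 1.43), so the more abundant of the pair was a different gene in each. Of the summed TPM of the Foxa genes, Foxa1 held 55.1% and Foxa2 44.3% for E14, and 41.0% and 55.8% for E14-Sox2TA/WT. Foxa3 went from 0.667% to 3.24% of that sum. Among 41 forkhead genes listed here, Foxa1 was the third and Foxa2 the fourth most abundant for E14. For E14-Sox2TA/WT, Foxa2 was the second and Foxa1 the fourth. The other genes of the first 4 were Foxj1, the factor of motile cilia, and Foxp4. Of the 38 listed forkhead genes other than Foxa1 to Foxa3, a list that may not hold the whole family, 31 had a TPM of 1 or more in either library. Among these 31, 6 were more than 2-fold higher and 6 lower, with a median log2 ratio of -0.14, which was 0.056 in FPKM.

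The promoters of Foxa1 and Foxa2 are shown because these genes, with the highest levels of the 8, had ratios on either side of 1 in TPM, Foxa1 with an interval that includes 1. The windows run from 250 bases before to 50 bases after a RefSeq transcription start on GRCm38.p6, 5′ to 3′ on the strand of the gene. Capitals mark exact matches to CTTTGT or its reverse complement ACAAAG, a core of SOX sites, to the forkhead letters TGTTTAC or GTAAACA, and to the GATA letters AGATAA or TTATCT. Foxa2 has windows at 3 starts, and the one with matches is printed, at chr2:148045415-148045714, minus strand. That of Foxa1 is chr12:57546062-57546361, minus strand. Both printed windows lie inside the span of their gene given above, at internal starts, and the Foxa2 window at the 5′ end of the gene held 0 matches.
Foxa1: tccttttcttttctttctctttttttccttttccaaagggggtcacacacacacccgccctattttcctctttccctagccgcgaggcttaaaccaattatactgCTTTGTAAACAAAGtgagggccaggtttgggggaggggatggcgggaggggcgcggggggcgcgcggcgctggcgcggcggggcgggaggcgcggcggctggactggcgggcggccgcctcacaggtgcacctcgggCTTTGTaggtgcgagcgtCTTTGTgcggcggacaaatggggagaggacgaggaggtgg
Foxa2: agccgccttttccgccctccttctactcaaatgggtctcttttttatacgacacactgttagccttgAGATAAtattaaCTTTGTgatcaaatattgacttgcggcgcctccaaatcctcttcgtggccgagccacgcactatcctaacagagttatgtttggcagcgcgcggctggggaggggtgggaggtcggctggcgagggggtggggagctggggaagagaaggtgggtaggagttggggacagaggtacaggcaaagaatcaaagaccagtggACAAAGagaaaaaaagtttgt

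The Foxa1 window held the SOX core 4 times, and a facing pair of these overlapped GTAAACA in the first capital run, from base 106 to base 119 of the window. The Foxa2 window held the SOX core 2 times and the GATA letters once. Of 32851 promoter windows of this length, 18.7% held the SOX core, 3.65% the forkhead letters and 11.2% the GATA letters. A second SOX core, CATTGT or ACAATG, was in 12.6% of all windows and in 0 of the 9 windows of the factors. Of 2 windows of Hnf4a, the upstream one held the GATA letters once. The windows of Foxa3, Hhex and Pdx1 and the other starts of Foxa2 held 0 matches to any of these letters. A match is a run of letters and does not show binding.

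Gata4 (NCBI Gene 14463, chromosome 14 from 63198914 to 63271712, minus strand) had 43 reads and a TPM of 0.511 for E14, and 1239 reads and a TPM of 13.5 for E14-Sox2TA/WT. It was 26.4-fold higher (19.5 to 36.7), the largest ratio of the 8. In order of TPM it stood at 18160 of 45777 genes for E14 and at 8767 for E14-Sox2TA/WT. Gata6 (NCBI Gene 14465, chromosome 18 from 11052510 to 11085636, plus strand) had 56 reads and a TPM of 0.718 for E14, and 596 reads and a TPM of 6.96 for E14-Sox2TA/WT. It was 9.69-fold higher (7.36 to 13.0), and its TPM stayed below 10 in both libraries. Inside the E14 library the pair did not differ beyond counting error, with Gata4 at 0.712 times Gata6 (0.467 to 1.08), whereas Gata4 was 1.94 times Gata6 (1.76 to 2.15) for E14-Sox2TA/WT.

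The other abundant GATA genes were lower. Gata2 and Gata3, factors of blood progenitors and of neural and epithelial tissues, had a TPM of 8.97 and 8.91 for E14 and 5.21 and 3.08 for E14-Sox2TA/WT. Gata2 was thus 1.72-fold lower (1.53 to 1.94) and Gata3 2.90-fold lower (2.51 to 3.35). Of the summed TPM of Gata1 to Gata6, Gata4 and Gata6 held 2.66% and 3.73% for E14 and 46.1% and 23.7% for E14-Sox2TA/WT. Gata2 stood at 17.5 times Gata4 (12.9 to 24.5) in the former and at 0.385 times Gata4 (0.345 to 0.429) in the latter. Gata5, the remaining GATA gene of gut and heart, had 9 reads and 30 reads, and Gata1, the erythroid factor, 3 and 11. The cofactors that bind GATA proteins were lower, Zfpm1 by 1.75-fold (1.53 to 2.01) and Zfpm2 by 9.78-fold (7.90 to 12.2). Of these 6 genes beside Gata4 and Gata6, 4 had a TPM of 1 or more in either library, 0 of them higher, with a median log2 ratio of -0.98. Over all 18558 genes at that level, 8819 were higher. Zfpm2 reached it for E14 only, with a TPM of 6.89 and 0.705, so its direction is fixed by the filter. Gata1 and Gata5, below that level in both libraries, had higher values for E14-Sox2TA/WT, with ratios of 4.87 (1.29 to 27.2) and 3.15 (1.46 to 7.54).

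**Figure D2:**
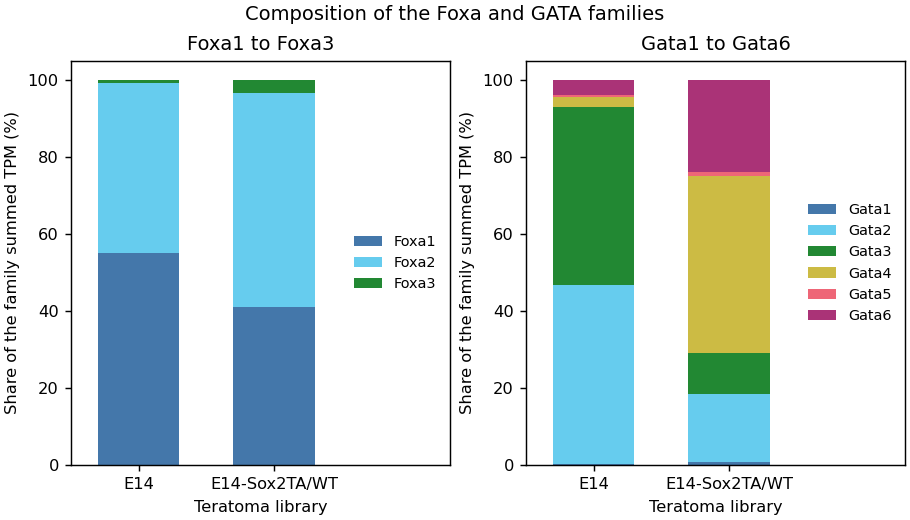
Share of the summed TPM of Foxa1 to Foxa3 (left) and of Gata1 to Gata6 (right) held by each gene in the E14 and E14-Sox2TA/WT libraries, in percent. Foxa1 and Foxa2 hold most of the Foxa sum in both libraries, while Gata2 and Gata3 hold most of the GATA sum for E14 and Gata4 and Gata6 for E14-Sox2TA/WT.

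Hnf4a (NCBI Gene 15378, chromosome 2 from 163506811 to 163572907, plus strand) had 31 reads and a TPM of 0.288 for E14, and 507 reads and a TPM of 4.33 for E14-Sox2TA/WT. It was 15.0-fold higher (10.5 to 22.3). Relative to Foxa2 it stood at 0.00817 (0.00553 to 0.0116) for E14 and at 0.0757 (0.0688 to 0.0831) for E14-Sox2TA/WT. The intervals of these ratios did not overlap, whatever the scaling between the libraries.

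Hhex (NCBI Gene 15242, chromosome 19 from 37434841 to 37440731, plus strand) had 64 reads and a TPM of 1.49 for E14, and 307 reads and a TPM of 6.44 for E14-Sox2TA/WT. It was 4.32-fold higher (3.29 to 5.75) and had the smallest ratio of the 5 factors past 2-fold. Pdx1 (NCBI Gene 18609, chromosome 5 from 147270097 to 147275848, plus strand) had 5 reads for E14 and 6 for E14-Sox2TA/WT, a TPM of 0.0856 and 0.108. The interval of its ratio ran from 0.322 to 5.24, so neither a difference nor its absence was detectable at this depth.

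**Figure D3:**
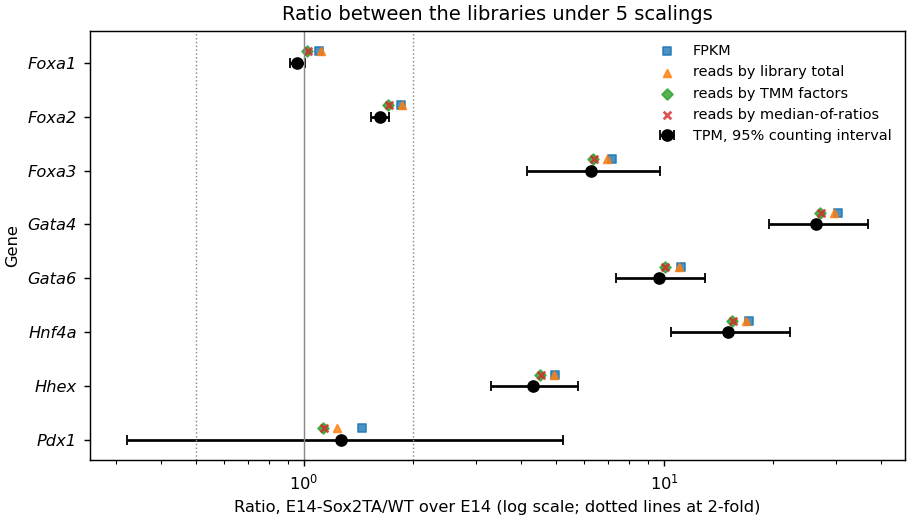
Ratio of each endoderm factor, E14-Sox2TA/WT over E14 (log scale), in TPM with its 95% counting interval (black), and in FPKM and in read counts scaled by library total, TMM factors and median-of-ratios size factors (coloured). The intervals of Foxa3, Gata4, Gata6, Hnf4a and Hhex lie wholly beyond 2-fold, that of Foxa2 lies between 1.53 and 1.72, and Foxa1 changes side of 1 with the scaling.

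Among the 8 factors the order of levels for E14 was Foxa1, Foxa2, Hhex, Gata6, Foxa3, Gata4, Hnf4a and Pdx1. Foxa1 and Foxa2 stood apart from the rest, holding 53.0% and 42.6% of the summed TPM of the 8. The intervals of Gata6 (0.543 to 0.933), Foxa3 (0.350 to 0.773) and Gata4 (0.370 to 0.689) overlapped, as did those of Foxa3 and Gata4 with that of Hnf4a (0.196 to 0.409). The lower bound of Hnf4a lay under the upper bound of Pdx1. Below Hhex the order of neighbouring ranks is thus not resolved, although Gata6 lay wholly above Hnf4a, and Gata6, Foxa3 and Gata4 wholly above Pdx1. For E14-Sox2TA/WT the order was Foxa2, Foxa1, Gata4, Gata6, Hhex, Hnf4a, Foxa3 and Pdx1. Here Gata6 (6.41 to 7.54) and Hhex (5.74 to 7.20) were the neighbours whose intervals overlapped. The summed TPM was 82.8 for E14 and 134 for E14-Sox2TA/WT, where Gata4 held 10.1% of it.

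Likeness to other genes was measured as the distance in log2 of TPM + 1 over the 2 libraries, among 207 genes of the lists used here. Many of the 207 genes were listed as endoderm genes, so the kind of gene found nearest is in part set by that choice. The nearest gene to Hnf4a was Fgg and the nearest to Gata6 was Fgb, both fibrinogen chains made by liver, at a distance of 0.185 and 0.160. Foxa3 was nearest to Fabp1, a fatty acid binding protein of liver and gut (0.175), Gata4 to Gpa33, an intestinal surface antigen (0.517), and Hhex to Foxs1 (0.0913). Foxa2 was nearest to Ddc, the decarboxylase of dopamine and serotonin synthesis (0.0629), and Foxa1 to Foxp4 (0.289). With 2 libraries this compares a pair of levels and no pattern across samples.

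The other genes of the endoderm were read from lists, with 1 added to each TPM and a TPM of 1 or more in either library. Over all genes so filtered, the median log2 ratio was -0.06 and 19.3% were more than 2-fold higher. Among 27 other endoderm regulators, 23 were measured, of which 8 were more than 2-fold higher and 8 more than 2-fold lower, with a median of 0.36. Over the 9 of them with a TPM of 10 or more the median was -1.20, with 2 more than 2-fold higher and 5 lower, so the direction turned with the filter. Sox17 and Sox7, of definitive and primitive endoderm, were 3.80-fold (3.25 to 4.47) and 3.12-fold higher (2.62 to 3.73), and Elf3, an epithelial factor, was 2.68-fold higher (2.50 to 2.88). Nkx2-1, a factor of lung and thyroid and of the ventral forebrain, had a TPM of 74.2 and 0.789 and was 94.0-fold lower (73.0 to 123). Sox9, of many progenitors and of cartilage, was 2.61-fold lower (2.47 to 2.75). These regulators thus went both ways.

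Genes of the tissues in which Hnf4a and the Foxa and GATA factors act were then read. Of 22 visceral endoderm and liver genes, 21 were measured, all higher, 19 of them by more than 2-fold, with a median of 2.92. Restricted to the 10 already at a TPM of at least 1 for E14, 10 were higher and 8 by more than 2-fold. Over all 16614 genes at that level for E14, 6875 were higher and 1819 by more than 2-fold. Dab2, an endocytic adaptor of visceral endoderm, had a TPM of 14.1 and 105, 7.47-fold higher (7.07 to 7.89), and Afp, the fetal serum protein of yolk sac and liver, 0.614 and 151, 247-fold higher (174 to 364). Apoa4, an intestinal and hepatic apolipoprotein, had 0 reads and 896 reads, at least 308-fold higher against a floor of 3 reads. That bound is of reads scaled by library total, unlike the folds of TPM beside it. The summed TPM of the list was 64.6 and 662. Of 11 parietal and primitive endoderm genes, 10 were higher and 5 by more than 2-fold, with a median of 0.71.

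The lists for organs of the gut tube differed. Of 13 intestinal epithelium genes, 10 were measured and all 10 were higher, 8 by more than 2-fold. For 6 of them this was fixed by the filter, which they passed through the E14-Sox2TA/WT library only, and of the other 4, 2 were more than 2-fold higher. Lgals4, a galectin of gut epithelium, was 13.2-fold higher (10.2 to 17.3). Of 23 pancreas genes, to which Pdx1 belongs by function, 14 were measured, with 4 more than 2-fold higher and 3 lower. Those 4 passed the filter through the E14-Sox2TA/WT library only. Of the 9 with a TPM of 1 or more for E14, 0 were more than 2-fold higher. Another 4 of the list, among them the insulin genes Ins1 and Ins2, had 0 TPM in both libraries. The list median was 0.34, and -2.16 over the 3 genes with a TPM of 10 or more. These were Sst, Insm1 and Nkx6-1, the same 3 genes that were lower. Whether their reads came from pancreas or from other cells was not tested. Of 13 lung and stomach genes, 10 were measured, 8 more than 2-fold higher and 1, Nkx2-1, lower, with a summed TPM of 79.1 and 57.7. Nkx2-1, given above as also a factor of the ventral forebrain, had a TPM of 74.2 and 0.789, so the sum fell through this gene. Of these 10, 3 had a TPM of 1 or more for E14, 1 of them more than 2-fold higher, and the other 7 passed through the E14-Sox2TA/WT library only, among them Tff2, a trefoil peptide of stomach, with 0 reads and 272 reads. General epithelial genes were also higher, 12 of 13 with a median of 0.90, with Krt8 at a TPM of 118 and 426. Their part in the levels of the 8 factors was not tested.

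Cell types outside endoderm that use these factors were read in the same way. Of 14 cardiac muscle genes, where Gata4 and Gata6 also act, 10 were measured, 5 higher, all by more than 2-fold, and 5 lower, 2 by more than 2-fold. Of the 7 with a TPM of 1 or more for E14, 2 were higher. The rest of the 5 higher genes passed the filter through the E14-Sox2TA/WT library only. The summed TPM of the list was 209 and 94.2. The lower pair, the sarcomere genes Actc1 and Myl4, held most of that sum, with a TPM of 94.7 and 31.6 for Actc1. Whether the reads of this pair came from heart or from other muscle was not tested. The list median was 0.23, and -1.55 over the 2 genes with a TPM of 10 or more. The cardiac factors Nkx2-5, with 22 reads and 12 reads, and Tbx5, with 4 and 14, were near 0 in both libraries, while Hand1 went from 0 reads to 207. Of 12 endothelium genes, where Hhex also acts, 8 were higher and 2 by more than 2-fold, with a summed TPM of 157 and 184. Egfl7, a secreted endothelial protein, was 2.26-fold higher (2.06 to 2.49), Tek, an angiopoietin receptor, 2.92-fold higher (2.53 to 3.37), Pecam1, an adhesion molecule, 1.14-fold higher (1.08 to 1.21) and Tal1, a blood and endothelial factor, 3.32-fold lower (2.70 to 4.12). Of 9 floor plate and notochord genes, where Foxa1 and Foxa2 also act, 4 were higher and 5 lower, with a summed TPM of 403 and 317. The most abundant were lower, Ntn1, a guidance cue, by 1.52-fold (1.49 to 1.55) and Spon1, a floor plate matrix protein, by 2.67-fold (2.60 to 2.74). Shh, the floor plate and notochord signal, was 1.31-fold higher (1.24 to 1.37), and the notochord factors T and Noto were 8.48-fold (7.40 to 9.74) and 20.1-fold higher (9.97 to 47.4). Of 9 midbrain dopaminergic genes, 8 were measured, with a median of 0.27. Of these 8, 6 were higher, 2 by more than 2-fold, and 2 were lower, 1 by more than 2-fold. The latter was Nr4a2, 2.18-fold lower (1.95 to 2.44). Of the 7 with a TPM of 1 or more for E14, 5 were higher and 1 by more than 2-fold. None of the 9 floor plate and notochord, 9 dopaminergic, 14 cardiac and 12 endothelium genes was at 0 in both libraries, and their part in the levels of the factors was not tested.

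**Figure D4:**
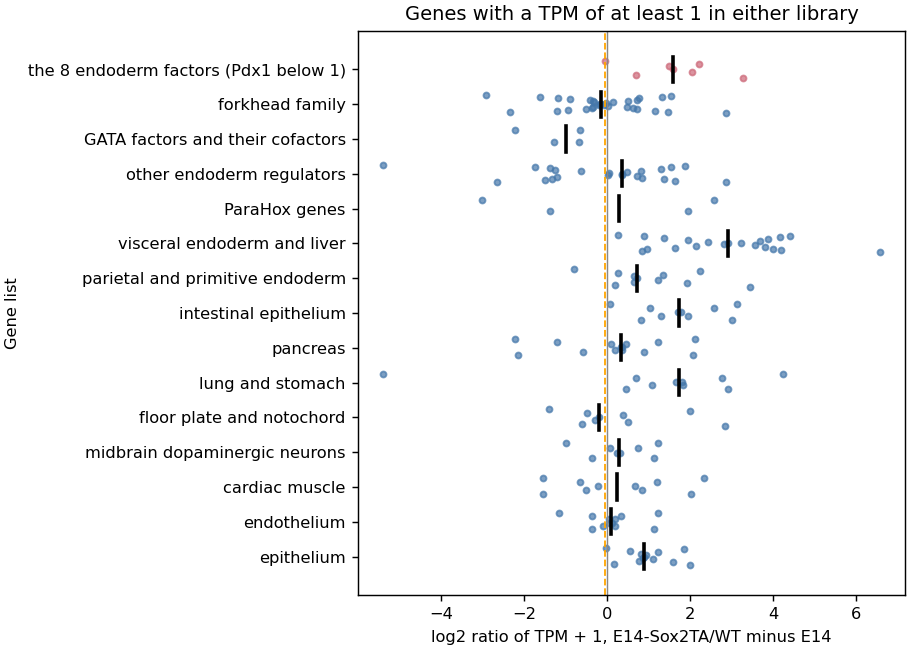
log2 ratio of TPM + 1, E14-Sox2TA/WT minus E14, for each gene with a TPM of at least 1 in either library (points), by list, with the list median as a black bar and the median of all genes as a dashed line at -0.06. The visceral endoderm and liver and the intestinal lists lie to the right of 0, while the other endoderm regulators spread to both sides, as far as Nkx2-1.

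Genes beside the factors were read to see whether their surroundings changed with them. The medians of the 7 chromosomes that carry the factors lay between -0.10 and 0.04 relative to all genes with a TPM of at least 10, on the log2 scale. Within 100 kb of the 8 factors, 32 neighbouring genes had a TPM of 1 or more in either library, of which 7 were more than 2-fold higher, 2 of these from 0 reads, and 10 more than 2-fold lower. Of the higher, Gm16246, R3hdml, 1010001N08Rik and Cdx2 reached that TPM for E14-Sox2TA/WT only. Of the lower, Mir3100, Gm4969 and Gm38751 reached it for E14 only. Over all genes with that TPM in either library, 19.3% were more than 2-fold higher and 18.9% lower. Around Foxa3, 0 of 10 such neighbours were higher, among them Nova2, a neuronal splicing factor with a TPM of 34.3 and 4.55 and a ratio of 0.133 (0.124 to 0.142), while the ratio of Foxa3 was 6.25. Near Hnf4a, Gdap1l1, a gene of neural tissue, had a TPM of 69.5 and 10.6 and a ratio of 0.153 (0.141 to 0.166). Beside Gata4, Neil2, a DNA glycosylase gene 4760 bases away, was 2.16-fold higher (1.71 to 2.73).

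Noncoding neighbours of Foxa2 and Foxa1 were higher. The lncRNA 9030622O22Rik, which ends 2364 bases from Foxa2, had 403 reads and 1162 reads and was 2.44-fold higher (2.17 to 2.73), next to the 1.62-fold of Foxa2. Near Foxa1, which itself did not move beyond counting error, the lncRNA Gm20016 was 3.98-fold higher (2.97 to 5.42) and Gm16246 4.31-fold higher (3.04 to 6.26). Ttc6, which overlaps Foxa1 by 1326 bases on the opposite strand, was at 1.09-fold (0.980 to 1.22). The antisense lncRNA at the start of Gata6, 1010001N08Rik, overlaps it by 58 bases and had 0 reads and 31 reads, at least 10.6-fold higher by library total. Hnf4aos, antisense to Hnf4a, had 0 reads and 4 reads, for which no fold is given. Whether the counting used strand is not given in the sources used here, so the values of overlapping genes are uncertain.

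Pdx1 lies in the ParaHox cluster of homeobox genes on chromosome 5, between Gsx1 and Cdx2. Gsx1, a factor of the forebrain and hindbrain, had a TPM of 20.0 and 1.58 and was 12.7-fold lower (10.01 to 16.2). Cdx2, of hindgut and trophoblast, had 0 reads and 165 reads, at least 56.7-fold higher by library total. Pdx1 stayed at 5 reads and 6 reads between these 2 neighbours, which went opposite ways. Of the other ParaHox genes, Cdx1, also of the intestine, had 0 reads and 234 reads. Of the 5 ParaHox genes other than Pdx1, 4 had a TPM of 1 or more in either library, 2 of them more than 2-fold higher and 2 lower, with a median log2 ratio of 0.28, and Gsx1 was the 1 gene with a TPM of 10 or more.

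**Figure D5:**
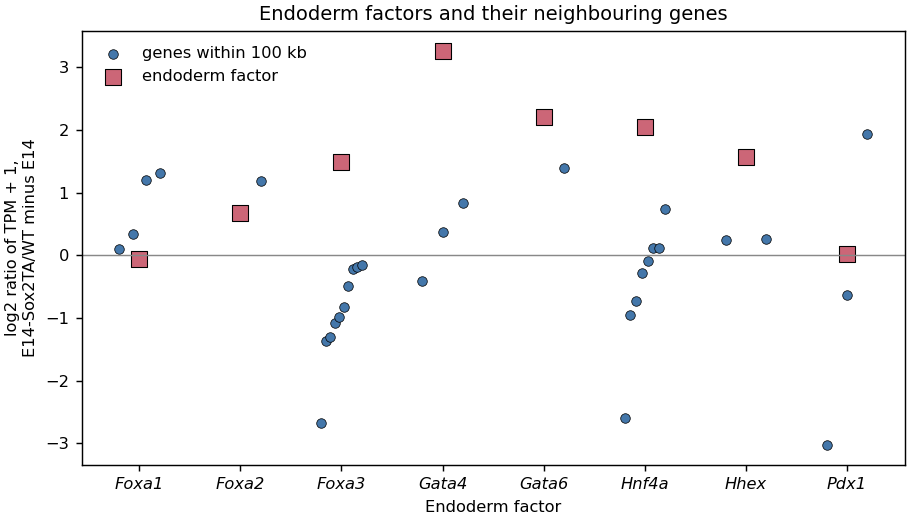
log2 ratio of TPM + 1, E14-Sox2TA/WT minus E14, for each endoderm factor (red square) and for the genes within 100 kb of it with a TPM of at least 1 in either library (blue circles). The squares of Gata4, Gata6, Hnf4a, Hhex and Foxa3 lie above the circles of their neighbours, and the neighbours of Pdx1 lie on both sides of it.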

How the data were processed

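RNA-seq of 1 E14 and 1 E14-Sox2TA/WT teratoma library was used. The authors deposited read counts per gene, FPKM (counts over transcript length and depth) and TPM for both, on NCBI gene identifiers of mm10, from NovaSeq reads. The submitters' processing notes name bcl2fastq 2.20.0, Trimmomatic, HISAT2 2.1.0 and StringTie 2.1.3b, without their order. They also name hg19. Positions and promoters came from RefSeq tables of GRCm38.p6, the same build, which matched 45675 of 45777 identifiers and held promoters for 6 of the 8 factors. Strands came from GENCODE M21.

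Main values were ratios of the deposited TPM. The interval of a ratio is that of the read counts, carried to the TPM scale. A count of 0 was set to a floor of 3 reads, scaled by library total, for lower bounds. No p-value was computed, and alternatives were FPKM, other scalings, filters, folds and a smaller pseudocount. Values were set beside those of all genes. The 8 factors and the 14 gene lists were chosen with earlier results of these data known. Motifs and the 100 kb window were chosen after the values were seen. The rule for named genes took the 8 factors and their antisense rows, the 3 genes of highest TPM and the 2 of largest log2 ratio per list, all ParaHox and GATA genes, and the nearest gene to each factor. Neighbours and others named were picked after their values were seen. The functions were tested on simulated data with 200 changed genes. Scripts ran in Python 3.11.15 with scipy 1.17.1, pandas 2.3.3 and numpy 2.4.6, and TMM factors came from edgeR 4.0.16 in R 4.3.3. Some genes of the lists are not reported here.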

Additional observations from a re-analysis of the deposited data

How the results depend on the processing

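No paired analysis was possible because each group held a single library, and for the same reason no library could be left out. Of 87 alternative values, 71 kept their direction and stayed within limits, which were the counting interval for a ratio, the order-statistic interval for a list median and 1.5 times for a count, while 6 moved further and 10 changed sign. Foxa1, at 0.957 in TPM, was at 1.10 in FPKM, 1.11 in read counts scaled by library total, 1.02 with TMM factors, 1.02 with median-of-ratios size factors and 1.09 centred on the median of all genes. Foxa2, at 1.62, was at 1.86 in FPKM, 1.87 by library total and 1.85 when centred. The number of factors past the DEG rule, 1, became 5 with a TPM of at least 1, 5 without a filter and 2 at a fold above 1.5. With a TPM of at least 10, the medians became -2.16 for the pancreas list (3 genes), -1.55 for cardiac muscle (2), -1.20 for the other endoderm regulators (9) and -3.03 for ParaHox (1), all positive before, and the forkhead median became 0.056 in FPKM. The GATA list had 0 genes at that level. The causes were not tested, apart from the scaling and filters themselves. Depth limits Pdx1, Hnf4aos and Gata1, each with at most 11 reads in a library.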
